A study of Drosophila melanogaster with 8 samples.

Results

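The gustatory (Gr), ionotropic (Ir) and odorant (Or) receptor genes described here numbered 39, made up of 13 Gr, 15 Ir and 11 Or genes, out of 3850 genes named in the data. They were chosen by gene symbol from the authors' deposited table of transcripts that differed at least 1.5-fold between BEAF-32 mutant and wildtype wing discs. The contrast between the genotypes therefore chose the members, and every difference between genotypes below is a description of chosen genes, with no test read from it. A RefSeq gene table lists 60 Gr, 66 Ir and 60 Or genes of Drosophila melanogaster. Receptor genes that changed by less than 1.5-fold carry no name in these data and are not analysed here. All 15 Ir genes stood in the deposited table under CG numbers and were recognised by synonym, and each of the 39 genes had 1 listed transcript.

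The RNA came from wing imaginal discs of larvae in the third instar, the epithelial sacs that form the adult wing. Wildtype larvae were Oregon R, and the mutants were homozygous for a BEAF-32 mutation whose allele the labels do not name. BEAF-32 encodes an insulator protein that binds chromatin near gene promoters. Each genotype had 4 Cy3 arrays. Arrays carry a pair of numbers in their titles, and arrays that shared the first number were near repeats of each other (correlation across transcripts 0.9977 to 0.9986), so they were averaged. This left 2 replicates per genotype, called wildtype replicates 1 and 2 and mutant replicates 1 and 2, with 2 arrays in each. The design text of the series gives 2 biological and 2 experimental replicates, and the labels do not say which number stands for which. The labels do not state that the replicates came from separate dissections, and the strain label reads Oregon R for both genotypes. The mutation sits in a single stock, so its effect and that of anything else that sets the stock apart cannot be told apart.

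Gustatory and odorant receptors are membrane proteins of insect sensory neurons that form ion channels opened by tastants or odours, and most odorant receptors need the co-receptor Orco. Ionotropic receptors are relatives of the glutamate-gated channels of synapses and serve taste, smell, humidity and temperature sensing. The adult wing margin carries taste bristles whose precursor cells are specified in the wing disc, but the main sites of these receptors are the antenna, the mouthparts, the legs and the larval head organs. In RNA from whole discs, fewer cells of a type and less RNA per cell cannot be told apart.

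Values are log2 expression values, and no receptor's level is set against that of another, since each is read by its own probes. The floor of the arrays, taken as each array's lowest value, was at 6.83 to 6.90, and their medians were at 9.36 to 9.43. Wildtype replicate 1 stood apart from the other 3 replicates. Its lower quartile was 7.95 on both arrays, against 8.07 to 8.16 on the other 6, and its upper quartiles were 11.31 and 11.29, against 11.13 to 11.18. Wildtype arrays with different first numbers correlated at 0.9662 to 0.97, and mutant arrays at 0.9852 to 0.987. The results below are therefore given with and without wildtype replicate 1. Of 12 wing disc markers, 4 (ap, ara, bs and wg) were named in the data, and all lay between 11.14 and 13.82 on the wildtype arrays and between 9.90 and 13.11 on the mutant arrays. They differed between the genotypes: ara fell by 1.27 (limma, adjusted p = 0.028), bs fell by 1.12 (limma, adjusted p = 0.028) and wg rose by 1.08 (limma, adjusted p = 0.037), while ap, at a difference of -0.88, did not pass.

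Of the 39 receptor genes 38 had a higher mean in the mutant and 1, Or22b, a lower mean. The differences of the 38 ran from 0.60 to 1.58 on the log2 scale, that is from 1.52-fold to 2.98-fold. The median difference was 0.71 over Gr genes, 0.81 over Ir genes and 0.75 over Or genes, against 0.06 over all 16108 features. Over the 1941 named genes higher in the mutant, chosen by the same limit, it was 0.84. Among the 3850 named genes, all of which entered the table by changing at least 1.5-fold, 50.4% were higher in the mutant, and among all features 56.1% were. The family medians depended on which wildtype replicate was used. Against wildtype replicate 2 alone the medians were 0.24 for Gr, 0.34 for Ir and 0.31 for Or genes, and against wildtype replicate 1 alone they were 1.18, 1.47 and 1.17. For the 1941 named genes higher in the mutant they were 0.70 against wildtype replicate 2 and 1.12 against wildtype replicate 1.

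**Figure D1:**
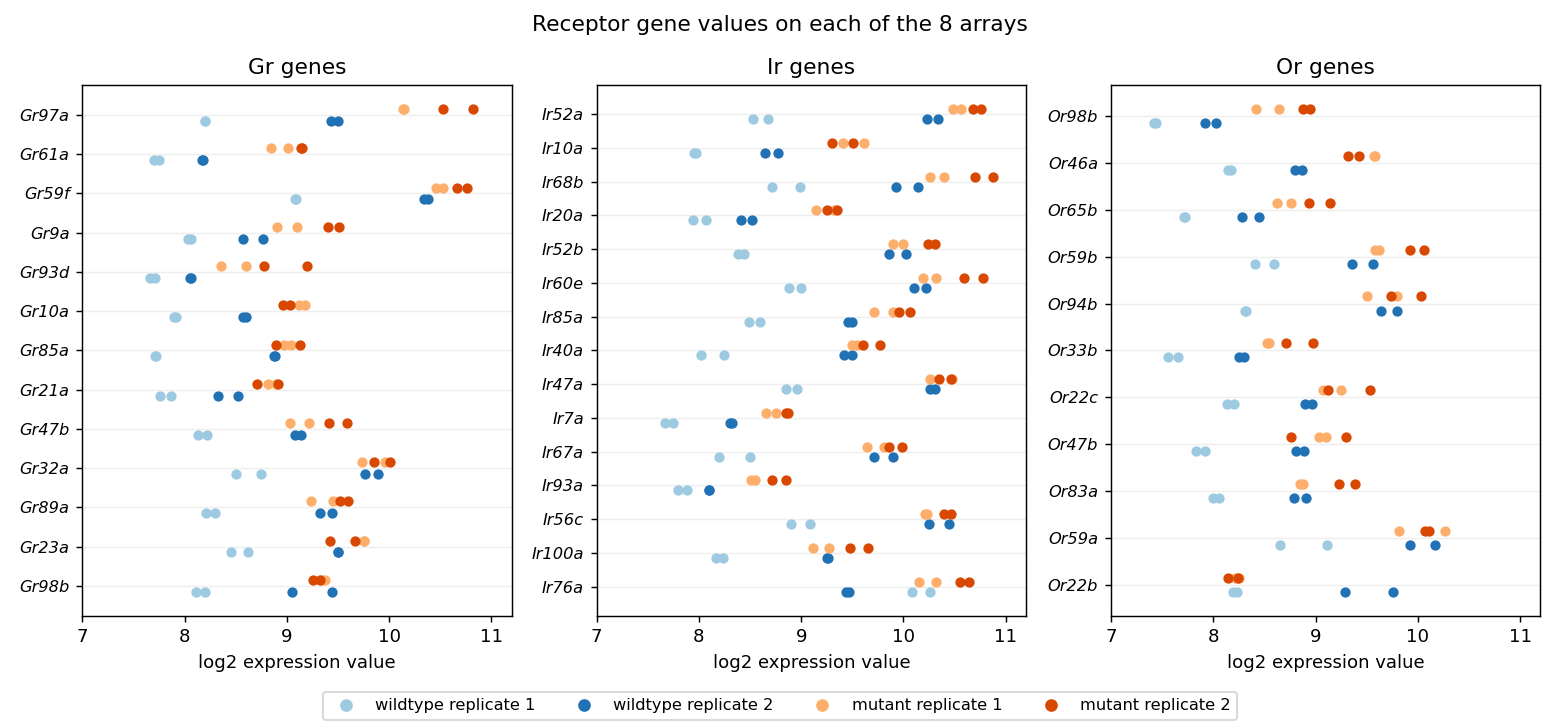
Log2 expression value (x axis) of each receptor gene on each of the 8 arrays, with 1 panel per family and genes ordered by the difference between genotype means; colours give the replicate, with 2 arrays each. The pale blue points of wildtype replicate 1 lie to the left of the dark blue points of wildtype replicate 2 in every gene except Ir76a, and the mutant points overlap those of the wildtype in 18 genes.

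With limma over all features, 0 of the 39 receptor genes were called higher and 0 lower at an adjusted p under 0.05. Of all 16108 features 2.79% were called higher and 4.46% lower. At an unadjusted p under 0.05 there were 13 receptor genes, against 27.3% of all features. The 1941 named genes higher in the mutant had passed the same 1.5-fold limit. Of these, limma called 450 higher, and 1300 had an unadjusted p under 0.05. With 2 replicates per genotype the fit had 2 residual degrees of freedom. By the rule that chose them, 38 receptor genes were at least 1.5-fold higher, as were 12.1% of all features. Against wildtype replicate 2 alone 8 of the 39 were at least 1.5-fold higher, and 9.79% of all features were. Against wildtype replicate 1 alone these figures were 37 and 17.1%. Of the 1941 named genes higher in the mutant, chosen by the same limit, 1146 were at least 1.5-fold higher against wildtype replicate 2 alone. Against wildtype replicate 1 alone 1749 of them were. The 4 mutant arrays lay above all 4 wildtype arrays in 21 receptor genes, against 26.1% of all features, and above both arrays of wildtype replicate 2 in 22, against 36.2% of all features. They lay above both arrays of wildtype replicate 1 in 37, against 43.0% of all features. Among the 1941 named genes higher in the mutant these 3 counts were 1611, 1653 and 1892. Since the contrast chose these genes, nothing is read from the distance between these counts and their background.

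Among the gustatory receptors, all 13 were higher in the mutant than in either wildtype replicate, by 1.02 to 2.21 over replicate 1 and by 0.06 to 0.94 over replicate 2. Gr97a (FBgn0041224) had the widest difference between genotypes of all 39 genes. It read 8.20 and 8.20 on the arrays of wildtype replicate 1, 9.43 and 9.50 on those of wildtype replicate 2, 10.15 and 10.14 in mutant replicate 1 and 10.53 and 10.82 in mutant replicate 2. All mutant arrays lay above all wildtype arrays, and the mutant mean of 10.41 ± 0.37 (SD, n = 2) stood 1.58 above the wildtype mean of 8.83 ± 0.90 (SE 0.49). The wildtype replicates themselves were 1.27 apart, and over wildtype replicate 2 the mutant was 0.94 higher, or 1.92-fold.

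Gr61a (FBgn0035167), a member of the sugar receptor group, read 7.75 and 7.70 in wildtype replicate 1, 8.17 and 8.18 in wildtype replicate 2, 9.01 and 8.84 in mutant replicate 1 and 9.15 and 9.14 in mutant replicate 2. Here the gap between the wildtype replicates, 0.45, was smaller than the step from the higher of them to the mutant, 0.86. Genotype means were 7.95 ± 0.32 and 9.04 ± 0.16 (SD, n = 2), a difference of 1.09 (SE 0.21). Gr93d (FBgn0045468) read 7.66 and 7.71 in wildtype replicate 1, 8.06 and 8.05 in wildtype replicate 2, 8.60 and 8.36 in mutant replicate 1 and 8.78 and 9.20 in mutant replicate 2. Its groups did not overlap, and the mutant replicates differed from each other by 0.51, more than the wildtype replicates at 0.37.

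Gr9a (FBgn0052693) read 8.03 and 8.06, then 8.77 and 8.57, in wildtype replicates 1 and 2, and 9.10 and 8.90, then 9.40 and 9.51, in mutant replicates 1 and 2. Gr10a (FBgn0045502), which in the antenna is made in the same neurons as Or10a, read 7.90 and 7.92, then 8.57 and 8.60, in the wildtype and 9.18 and 9.12, then 8.96 and 9.03, in the mutant. Both genes had no overlap between the genotypes and lay 0.55 and 0.49 above wildtype replicate 2. In the gene models of the RefSeq table Gr10a lies within Or10a, and how the probes divide the pair is not stated in the labels or files. Gr59f (FBgn0041234) read 9.09 and 9.08, then 10.38 and 10.34, in the wildtype and 10.53 and 10.46, then 10.66 and 10.76, in the mutant. Its mutant arrays lay above all wildtype arrays, yet by only 0.24 on average over wildtype replicate 2, while the wildtype replicates were 1.28 apart.

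The other 7 Gr genes differed by 0.62 to 0.71 between genotypes. Gr21a, a subunit of the carbon dioxide receptor, and Gr85a had no overlap between the genotypes, at 0.41 and 0.13 above wildtype replicate 2. In Gr85a the genotypes all but touched, with the highest wildtype array at 8.88 and the lowest mutant array at 8.89. Arrays of the same replicate differed by up to 0.24 in that gene. Gr32a, a receptor for bitter compounds and for a courtship-inhibiting cue, was 1.26 above wildtype replicate 1 and 0.06 above wildtype replicate 2. The same held for Gr89a, at 1.19 and 0.07, and for Gr98b, at 1.17 and 0.07. Gr98b, which takes part in sensing the bitter amino acid L-canavanine, was the Gr gene nearest to the limit of the list, at 1.54-fold. Gr23a and Gr47b were 0.15 and 0.20 above wildtype replicate 2.

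Among the ionotropic receptors, all 15 had a higher mean in the mutant, and 14 were higher than wildtype replicate 2 taken alone. Ir52a (FBgn0034023) and Ir52b (FBgn0050469) are direct neighbours on chromosome arm 2R and belong, with Ir20a, to a group of candidate taste receptors. Ir52a read 8.53 and 8.68 in wildtype replicate 1, 10.23 and 10.34 in wildtype replicate 2, 10.56 and 10.48 in mutant replicate 1 and 10.68 and 10.76 in mutant replicate 2. Ir52b read 8.44 and 8.38, then 10.02 and 9.86, in the wildtype, and its 4 mutant arrays ranged from 9.90 to 10.31. The wildtype replicates were 1.68 apart in Ir52a and 1.53 in Ir52b, against 0.34 and 0.17 from wildtype replicate 2 to the mutant mean, and the genotypes overlapped in Ir52b.

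Ir10a (FBgn0083979) read 7.97 and 7.95, then 8.77 and 8.65, in wildtype replicates 1 and 2, and 9.61 and 9.41, then 9.30 and 9.51, in the mutant replicates. Ir20a (FBgn0031181) read 8.07 and 7.94, then 8.52 and 8.41, in the wildtype and 9.32 and 9.14, then 9.25 and 9.35, in the mutant. In both genes every mutant array lay above every wildtype array, and the mutant stood 0.75 and 0.80 above wildtype replicate 2, which is 1.68-fold and 1.74-fold. Their differences between genotype means were 1.12 (SE 0.28) and 1.03 (SE 0.20), from 8.34 ± 0.53 to 9.46 ± 0.08 in Ir10a and from 8.24 ± 0.33 to 9.26 ± 0.05 in Ir20a (SD, n = 2).

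Ir68b (FBgn0036250) read 8.99 and 8.71, then 10.14 and 9.93, in the wildtype and 10.40 and 10.26, then 10.70 and 10.88, in the mutant. Ir60e (FBgn0035019) read 9.0 and 8.88, then 10.22 and 10.10, in the wildtype and 10.32 and 10.19, then 10.78 and 10.59, in the mutant. Ir68b had no overlap between genotypes, whereas an Ir60e array of mutant replicate 1 fell below an array of wildtype replicate 2. Over wildtype replicate 2 the mutant was 0.52 higher in Ir68b and 0.31 in Ir60e. In both genes mutant replicate 2 stood above mutant replicate 1, by 0.46 and 0.43.

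Ir76a (FBgn0036907), an antennal receptor for amines, ordered the arrays differently from the other 38. It read 10.26 and 10.08 in wildtype replicate 1, 9.47 and 9.44 in wildtype replicate 2, 10.32 and 10.15 in mutant replicate 1 and 10.55 and 10.64 in mutant replicate 2. It was the single receptor gene in which wildtype replicate 1 was the higher wildtype replicate, by 0.72, and the genotypes overlapped. The mutant stood 0.97 above wildtype replicate 2 and 0.25 above wildtype replicate 1. At 1.52-fold it was also the Ir gene nearest to the limit of the list.

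The other 8 Ir genes differed by 0.65 to 0.89. Ir93a, a co-receptor in temperature and humidity sensing, read 7.88 and 7.80, then 8.10 and 8.10, in the wildtype and 8.51 and 8.55, then 8.71 and 8.85, in the mutant. With 0.26 it had the smallest gap between the wildtype replicates of the 39 genes, and its genotypes did not overlap. Ir7a, which takes part in acetic acid taste, and Ir85a had no overlap either and lay 0.48 and 0.42 above wildtype replicate 2. Ir40a, a humidity receptor of the antennal sacculus, was 1.47 above wildtype replicate 1 and 0.15 above wildtype replicate 2. Ir47a and Ir67a showed the same split, at 1.48 and 0.10 and at 1.47 and 0.02, and Ir100a was 1.18 and 0.13 above the 2 wildtype replicates. Ir56c was 1.33 above wildtype replicate 1 and 0.02 below wildtype replicate 2, at a difference of -0.02, so its direction turned with the replicate.

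Among the odorant receptors, 10 of 11 had a higher mean in the mutant. Or98b (FBgn0039582) read 7.44 and 7.42 in wildtype replicate 1, 8.03 and 7.92 in wildtype replicate 2, 8.42 and 8.64 in mutant replicate 1 and 8.88 and 8.95 in mutant replicate 2. Or46a (FBgn0026388), a receptor gene of the maxillary palp, read 8.14 and 8.17, then 8.80 and 8.87, in the wildtype and 9.57 and 9.58, then 9.32 and 9.43, in the mutant. Neither gene had an overlap between genotypes. These were the Or genes that stayed at least 1.5-fold higher against wildtype replicate 2 alone, at 1.68-fold and 1.56-fold. Their differences between genotype means were 1.02 (SE 0.26) and 0.98 (SE 0.27).

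Or65b (FBgn0041624), made in pheromone-sensing neurons of the antenna, read 7.72 and 7.71, then 8.28 and 8.45, in the wildtype and 8.76 and 8.62, then 8.94 and 9.14, in the mutant. Or33b (FBgn0026391) read 7.56 and 7.66, then 8.25 and 8.30, in the wildtype and 8.53 and 8.55, then 8.71 and 8.98, in the mutant. The genotypes did not overlap in either, and the mutant stood 0.50 and 0.42 above wildtype replicate 2. Or59b (FBgn0034865), an antennal receptor for acetate esters, read 8.59 and 8.41, then 9.56 and 9.36, in the wildtype and 9.58 and 9.62, then 9.92 and 10.06, in the mutant. Or94b (FBgn0039034), a receptor of larval olfactory neurons, read 8.32 and 8.31, then 9.64 and 9.80, in the wildtype and 9.80 and 9.50, then 9.74 and 10.03, in the mutant. Or59b was 0.34 above wildtype replicate 2 with no overlap between genotypes, and Or94b was 0.05 above it with overlapping arrays.

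Or22b (FBgn0026397), which lies beside Or22a and is made in the same antennal neurons, was the receptor gene with the lower mutant mean. It read 8.19 and 8.23 in wildtype replicate 1, 9.29 and 9.76 in wildtype replicate 2, 8.25 and 8.21 in mutant replicate 1 and 8.14 and 8.24 in mutant replicate 2. Wildtype replicate 2 alone was high, while wildtype replicate 1 and all mutant arrays lay between 8.14 and 8.25. The genotype means were 8.87 ± 0.93 and 8.21 ± 0.03 (SD, n = 2), a difference of -0.66 (SE 0.47), which was -1.31 against wildtype replicate 2 and 0.00 against wildtype replicate 1.

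Of the 4 remaining Or genes, Or22c was 0.31 above wildtype replicate 2 with no overlap between genotypes. Or83a and Or47b, which senses a cue that promotes male courtship, were 0.24 and 0.20 above wildtype replicate 2 with overlapping arrays. Or59a was 1.19 above wildtype replicate 1 and 0.02 above wildtype replicate 2, and at 1.52-fold it was the Or gene nearest to the limit. Features just outside the limit of 1.5-fold have no names here, so no receptor can be given on that side.

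**Figure D2:**
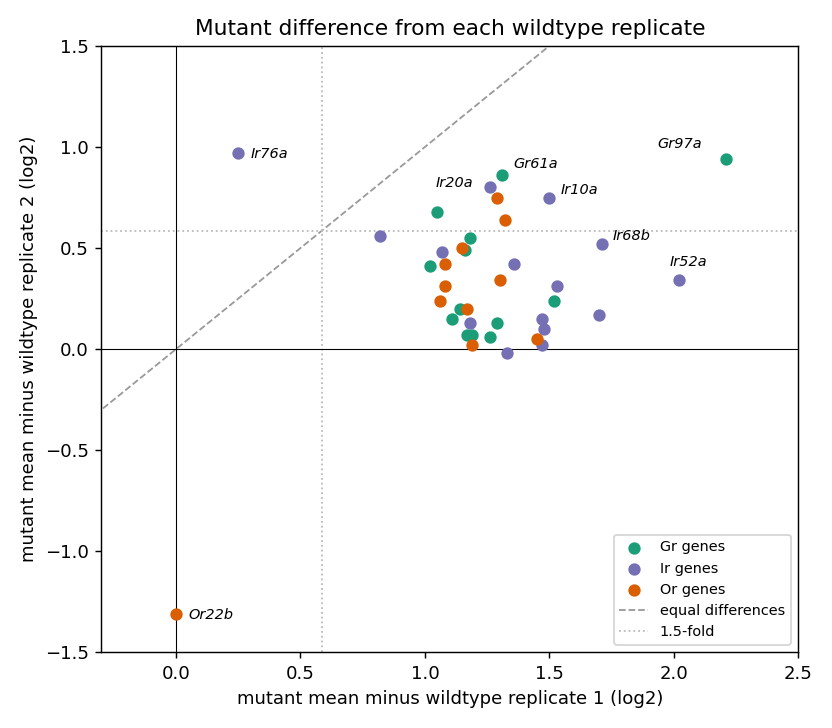
Difference of the mutant mean from wildtype replicate 1 (x axis) and from wildtype replicate 2 (y axis), in log2 units, with 1 point per receptor gene coloured by family; dotted lines mark 1.5-fold and the dashed line equal differences. Against wildtype replicate 1, 37 genes lie past 1.5-fold, and against wildtype replicate 2, 8 do; Ir76a lies above the dashed line and Or22b far below 0 on the y axis.

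The gap between the wildtype replicates had a median size of 0.96 over the 39 receptor genes, against 0.26 over all features. It was 0.40 over all named genes and 0.52 over the named genes higher in the mutant. In 38 of the 39 the mean of wildtype replicate 1 lay below that of wildtype replicate 2, with Ir76a as the exception. The median of the difference, replicate 1 minus replicate 2, was -0.96 for Gr, -1.19 for Ir and -0.82 for Or genes, and 0.03 over all features. Wildtype replicate 1 was lower in 46.6% of all features, in 61.8% of the features below the median level and in 31.3% of those above it. Among the 1941 named genes that were higher in the mutant, wildtype replicate 1 was the lower in 65.1%. These named genes were selected by a mean that holds both wildtype replicates, as the receptor genes were. In 33 of the 39 receptor genes the gap between the wildtype replicates was wider than the distance from wildtype replicate 2 to the mutant mean.

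The mutant replicates lay closer together, with mutant replicate 1 below mutant replicate 2 in 31 of 39 genes, against 51.1% of all features. The median difference was -0.21 over Gr, -0.21 over Ir and -0.23 over Or genes. Its median size was 0.21 over the receptor genes and 0.12 over all features. Arrays of the same replicate differed by a median of 0.11 over the receptor genes and 0.07 over all features. The gap between the wildtype replicates was thus far wider than that between near repeats. On both arrays of wildtype replicate 1, 7 receptor genes (Gr61a, Gr85a, Gr93d, Ir7a, Or33b, Or65b and Or98b) lay within 1 of the lowest value of the array. None of the 39 did so on all wildtype arrays or on all mutant arrays. The part of the wider spread of wildtype replicate 1 in the receptor differences was not tested. When the 8 arrays were given the same distribution by quantile normalization, the medians over Gr, Ir and Or genes were 0.64, 0.78 and 0.68. The mutant mean was then higher in 38 genes. These values do not measure the part of that spread, as the genes were chosen for their difference.

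**Figure D3:**
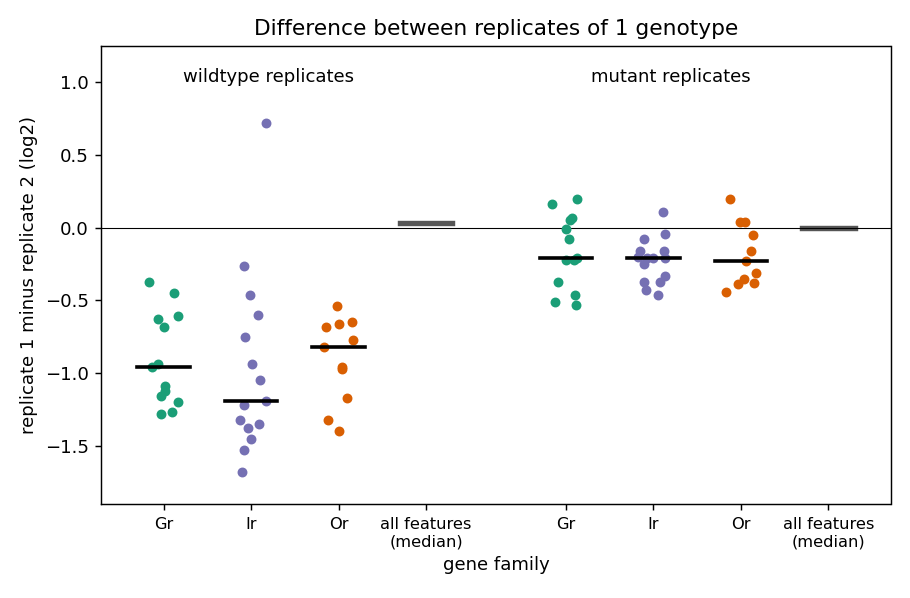
Difference between replicate 1 and replicate 2 of a genotype (y axis, log2) for each receptor gene, by family, with black bars at the family median and grey bars at the median of all features. In the wildtype the family medians lie between -1.19 and -0.82, in the mutant between -0.23 and -0.21, and the medians of all features are 0.03 and 0.00.

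The receptor genes that stayed at least 1.5-fold above wildtype replicate 2 were Gr61a, Gr93d, Gr97a, Ir10a, Ir20a, Ir76a, Or46a and Or98b, so each family held at least 2 of them. In all of these 8 except Ir76a every mutant array lay above every wildtype array, as in 26.1% of all features. That follows largely from the choice, since wildtype replicate 2 was the higher wildtype replicate in all of them except Ir76a. Without wildtype replicate 1, limma called 1 receptor gene higher, Ir20a, and 1 lower, Or22b, while it called 4.15% of all features higher and 4.91% lower. That fit has 1 wildtype value, which is assumed to vary like the mutant replicates. Without wildtype replicate 2 it called 36 receptor genes and 15.4% of all features higher. By chromosome arm, the median difference between genotype means ran from 0.69 for 7 genes on 2L to 0.87 for 5 genes on X. Against wildtype replicate 2 the arm medians were 0.15 for 2L, 0.20 for 11 genes on 2R, 0.24 for 11 genes on 3R, 0.52 for 5 genes on 3L and 0.55 for X.

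**Figure D4:**
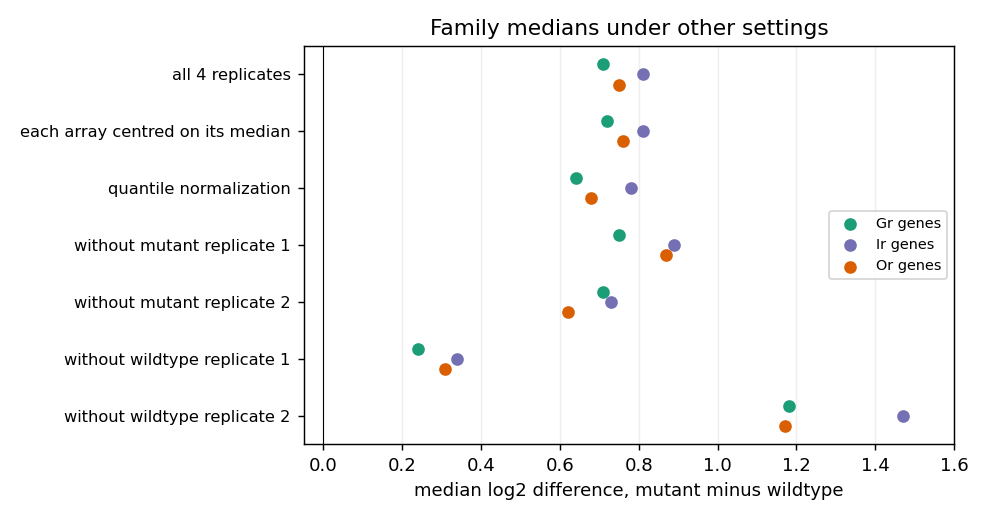
Median log2 difference, mutant minus wildtype (x axis), over the 13 Gr, 15 Ir and 11 Or genes with all replicates and under other settings (y axis). The medians stay between 0.62 and 0.89 except where a wildtype replicate is left out: they are 0.24 to 0.34 without replicate 1 and 1.17 to 1.47 without replicate 2.

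Other genes of chemical and mechanical sensing were named in smaller numbers. Of all 3850 named genes 30.4% passed in limma in either direction. All 7 named ppk genes, which encode epithelial sodium channel relatives of sensory neurons, were higher in the mutant and lower in wildtype replicate 1 than in replicate 2. Of these ppk17 rose by 1.12 (limma, adjusted p = 0.03) and stood 0.98 above wildtype replicate 2, while the other 6 did not pass. The median of the ppk genes was 0.89, and 0.17 against wildtype replicate 2. All 3 named genes of the CheA and CheB families, whose products sit beside pheromone-sensing cells, had higher mutant means (median 0.90, and 0.32 against wildtype replicate 2), and none passed. Of 4 named TRP channel genes, nompC, trpl and TrpA1 had mutant means higher by 0.61 to 0.76 without passing, and pain, a channel for noxious heat, fell by 1.13 (limma, adjusted p = 0.022).

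The odorant-binding proteins, secreted carriers of odour molecules, were split. Of 15 named Obp genes 10 had higher and 5 lower mutant means, 0 passed as higher and 2 fell. Obp99b fell from 13.42 to 13.70 on the wildtype arrays to 7.40 to 7.6 on the mutant arrays (difference -6.04, limma, adjusted p = 0.0033), and Obp44a fell by 2.53 (adjusted p = 0.016). Obp56d was high in wildtype replicate 2 alone, at 12.53 and 12.44 against 8.93 and 8.94 in wildtype replicate 1 and 8.34 to 8.47 in the mutant. Orco, Snmp1, Snmp2, EbpIII and the Csp genes were not among the named genes and are not analysed here.

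Neuronal markers ordered the arrays differently from the receptor genes. Of 16 neuronal markers 4 were named, Appl, fne, Syt1 and VGlut, and all had lower mutant means (median difference -0.98) and none passed. In each of them wildtype replicate 1 was above wildtype replicate 2, by 0.84 to 1.64, the reverse of 38 of the 39 receptor genes. These markers, too, are named because they changed at least 1.5-fold. Wildtype replicate 1 was the lower in 44.6% of all named genes and in 65.1% of those higher in the mutant. It was therefore the lower less often among named genes with lower mutant means, the group these markers belong to. Nothing is read from their order. The summed linear value of the 4 markers was 1990 to 5280 on the wildtype arrays and 1540 to 1990 on the mutant arrays. Of 11 markers of sensory organ precursors 2 were named: sc, a proneural gene, fell by 2.04 (limma, adjusted p = 0.0089), and cpo was 0.67 lower, at a difference of -0.67 that did not pass. Markers of other tissues differed between the genotypes in the same samples. All 8 fat body markers (Obp99b among them), all 10 salivary gland markers and all 7 named gut markers of 10 had lower mutant means, and all 6 named haemocyte markers of 10 had higher ones. Their summed linear values were 153000 to 163000 in the wildtype and 9540 to 34200 in the mutant for fat body, 197000 to 217000 and 9050 to 10000 for salivary gland, 64400 to 72600 and 14300 to 24300 for gut, and 6890 to 9420 and 25200 to 28300 for haemocytes. The part of other tissue in the receptor values was not tested.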

How the data were processed

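Per the labels' protocols, cDNA primed with oligo-dT from total RNA carried Cy3, and each sample took 1 NimbleGen array. The deposited value table holds log2 expression values for 16637 transcripts on 8 arrays. RMA and Partek are named, without versions, in the submitters' processing notes, and RMA equalises arrays, which can hide a shift shared by most genes. The authors' deposited table gives a ratio and fold change of wildtype over mutant, p-values, and F statistics as scores for transcripts changed at least 1.5-fold. Its names were used, and its p-values were not. No genome build or probe sequence was given, so no coordinates or sequences are printed, and the number of arrays limits the precision.

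Symbols were updated with a RefSeq gene table (Release 6 plus ISO1 MT). Of 39 receptor genes 24 matched by symbol and 15 by synonym. Members and gene lists were chosen with earlier results of these data known. Arrays of a genotype with the same first number were averaged. For a gene with several transcripts, the brightest on average stood for it. limma 3.58.1 in R 4.3.3 tested mutant minus wildtype over 16108 features (prior degrees of freedom 2.21) with Benjamini-Hochberg adjustment, and was tested on simulated data. Differences are mutant minus wildtype, the opposite sign to the deposited ratio. "Rose" and "fell" mean an adjusted p under 0.05. Values per array are given for up to 6 genes per family with the widest differences, and for genes singled out afterwards. Figures were drawn with matplotlib 3.10.9.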

Additional observations from a re-analysis of the deposited data

How the results depend on the processing

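The 468 values of single receptor genes under the alternatives kept their direction except 2. Without wildtype replicate 1 the difference of Ir56c was -0.02, over a range of -0.02 to 1.33 when a replicate was left out. Without wildtype replicate 2 that of Or22b was 0.00, over a range of -1.31 to 0.00. Settings that changed only the averaging or blocking of arrays, the averaging of transcripts or the filter leave each difference as it was. Its direction could not turn there, and the genes were chosen for a difference of at least 1.5-fold, so little is read from this count. The number of receptor genes called higher, 0 as reported, is given with the share of all features called higher, 2.79% as reported. It was 20 (24.4%) with 8 separate arrays, 12 (8.98%) with 8 arrays and a random block for the first number, and 38 (42.8%), with 1 lower (5472 of 16108 features), when averaging went by the second number instead. It was 2 (3.78%) after quantile normalization, 1 (3.72%) with a filter on dim features, 2 (4.64%) with limma's trend and robust settings, and 0 to 36 (0.0% to 15.4%) higher and 0 to 1 lower when a replicate was left out. Leaving out a replicate gave 8 to 37 genes at least 1.5-fold higher, and medians of 0.34 to 1.47 for Ir genes and 0.31 to 1.17 for Or genes. Without wildtype replicate 1 or 2 the mutant arrays lay above the remaining wildtype arrays in 22 and 37 genes (36.2% and 43.0% of all features), a count chosen after seeing the data. With the first number as a replicate block 7 genes (4.57% of all features) were called higher. The labels do not state whether same-numbered replicates of the 2 genotypes were paired, and the reported fit does not pair them. Deviations of same-numbered replicates from their genotype means correlated at 0.31 over all features and -0.09 over the receptor genes. Centring arrays on their median (3.09% of all features called higher) and averaging transcripts (2.91%) changed no call of a receptor gene. Averaging could not change a receptor difference, as no receptor gene had further listed transcripts. Signal over background is unknown, and only the floor of the values marks it.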

Other observations

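Some of the receptor genes lie beside other receptor genes or inside other genes, and the counts below were not made for all genes. By RefSeq gene order, 14 of the 39 had another Gr, Ir or Or gene as a direct neighbour, but only Ir52a and Ir52b neighboured each other within the list. The other neighbouring receptor genes have no name in these data. Another protein-coding gene overlapped 12 receptor genes and contained 8 of them whole. Ir47a lies within SLO2, whose mutant mean was 0.88 higher, and Or94b within Nha2, whose mutant mean was 1.27 higher, and neither passed. Gr32a overlaps CG6230, which fell by 0.86 (limma, adjusted p = 0.045) and so went the other way from Gr32a.

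Of 78 flanking protein-coding genes 21 were named, and leaving out Ir52a and Ir52b 10 had higher and 9 lower mutant means, with 6 passing, where 30.4% of all named genes passed. Beside Gr10a, Gs2, a glutamine synthetase gene, fell by 2.84 (adjusted p = 0.0086). Beside Or22b, haf rose by 1.42 (adjusted p = 0.046), where Or22b itself had a difference of -0.66. Ir76a lies between SREBP, a regulator of lipid synthesis, which rose by 1.48 (adjusted p = 0.037), and TORIP, which fell by 0.84 (adjusted p = 0.032). Beside Gr89a, Decay fell by 1.18 (adjusted p = 0.044), and beside Ir67a, CG42673 fell by 1.16 (adjusted p = 0.037). The neighbours of Gr97a differed in sign, with Tsp97E at -0.85 and CG5521 at 0.59, and neither passed.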
